A study of Saccharomyces cerevisiae with 4 samples.

Results

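The yeast array used here carries probe sets that the platform annotation pairs with no gene. These were taken as all non-control probe sets, those whose ID does not start with AFFX, that have no row in that annotation: 2443 of 9275 non-control and of 9335 probe sets in all. The choice used no measured value. Another 6504 probe sets had exactly 1 gene and 328 had several. RNA came from 4 cultures of budding yeast, with 1 array each: the strain labelled 1099 nab3-11 at 37 °C and at 25 °C, and the strain labelled 1415 wildtype at 37 °C and at 25 °C. All 4 were grown in the rich medium YPD and kept at the stated temperature for 2 hours. The allele nab3-11 of NAB3 is temperature-sensitive, and the submitters name 37 °C as its non-permissive and 25 °C as its permissive temperature. The 4 are called the 37 °C mutant, 25 °C mutant, 37 °C wild type and 25 °C wild type in what follows. Both wild type descriptions name the 25 °C mutant instead, and the titles and strain entries were followed. With 1 array per group there is no replicate check, no error and no p-value, and each difference compares single cultures. The number of arrays limits the precision.

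Nab3 is an RNA-binding protein that works with Nrd1, another RNA-binding protein, and with the helicase Sen1 to end transcription of short RNA polymerase II transcripts. Its known targets are small nucleolar RNAs (snoRNAs) and transcripts from intergenic and antisense DNA, most of which the TRAMP polyadenylation complex and the nuclear exosome with its exonuclease Rrp6 then trim or degrade. The question of the design is which RNAs differ once Nab3 function is lost, and probe sets without an annotated gene are those that a gene-by-gene account leaves out. The sources used here give neither their target sequences nor their genome positions. No sequence or coordinate is therefore printed, and each set is called by its ID.

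Signals of these probe sets were low. Each array was scaled to a trimmed mean of 150, and the floor was 21.8 signal units, the 40th percentile of all non-control signals. Below this floor a signal was not ranked, and a fold against it is written "at least". Of the 2443 probe sets, 903 (37.0%) lay above the floor in the 37 °C mutant, 587 (24.0%) in the 25 °C mutant, 648 (26.5%) in 37 °C wild type and 609 (24.9%) in 25 °C wild type. Among probe sets with 1 gene the share was 73.8% in the 37 °C mutant, 67.8% in the 25 °C mutant, 75.5% in 37 °C wild type and 67.7% in 25 °C wild type. The gene probe sets were thus detected about as often on both 37 °C arrays, while those without a gene were most often detected on the mutant 37 °C array. The median signal without a gene was 12.3 in the 37 °C mutant, 6.71 in the 25 °C mutant, 7.50 in 37 °C wild type and 7.51 in 25 °C wild type. In all, 1462 (59.8%) lay at or below the floor on all 4 arrays and 489 above it on all 4. The members nearest the floor were 5869_at and 10454_at just above it, each with a highest signal of 21.9, and 2625_at and 4653_at just below it, each at 21.8.

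The suffix of an ID gives the kind of probe set. A plain _at set is meant to match a single sequence, _s_at and _f_at sets can bind several related sequences or a family, _g_at sets share probes with another set, and _i_at and _r_at sets were made with fewer probes or relaxed rules. Of the probe sets without a gene, 1861 were _at, 290 _f_at, 142 _i_at, 69 _s_at, 43 _r_at and 38 _g_at. The family sets were the brightest kind. Of the 290 _f_at sets, 168 lay above the floor on all 4 arrays, and their highest signal had a median of 154. Of the 1861 _at sets, 676 (36.3%) lay above the floor on at least 1 array and 267 on all 4, with a median highest signal of 13.6.

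Detection on a single array was uneven between the strains. Of 273 sets without a gene that were above the floor on exactly 1 array, 222 (81.3%) were so only in the 37 °C mutant, against 17 only in the 25 °C mutant, 10 only in 37 °C wild type and 24 only in 25 °C wild type. At this cutoff, probe sets with 1 gene did not show the imbalance between the strains at 37 °C. Of their 337, 148 were above the floor only in the 37 °C mutant and 144 only in 37 °C wild type. Put as a share, 222 of the 1684 sets without a gene that were at or below the floor on the other 3 arrays (13.2%) were above it in the 37 °C mutant. The same share was 10 of 1472 (0.679%) in 37 °C wild type. For sets with 1 gene it was 148 of 1476 (10.0%) in the 37 °C mutant and 144 of 1472 (9.78%) in 37 °C wild type. Past 2 times the floor there were 70 such sets without a gene (4.16%) in the 37 °C mutant and 2 (0.136%) in 37 °C wild type. With 1 gene there were 28 (1.90%) and 6 (0.408%), so past that level gene sets also had more in the mutant.

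**Figure D1:**
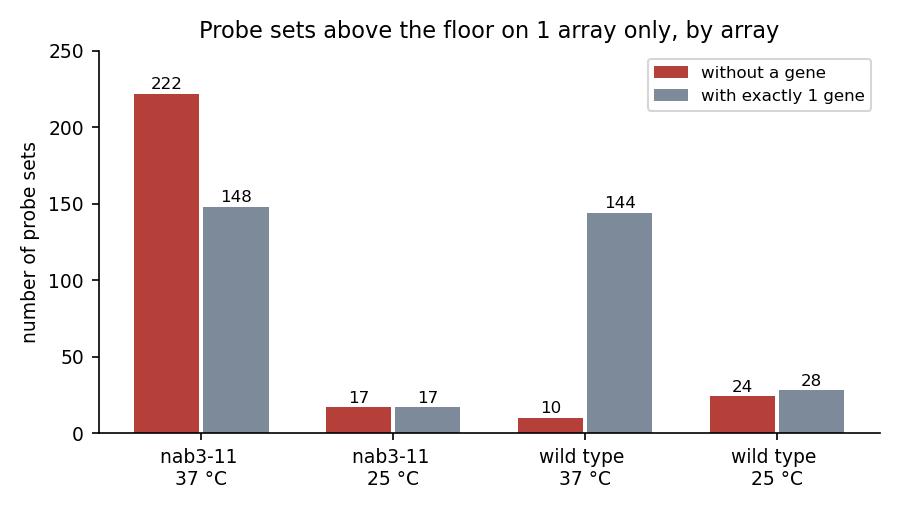
Number of probe sets (y axis) whose signal lay above the floor on 1 array and at or below it on the other 3, by that array (x axis), for probe sets without a gene and with exactly 1 gene. The bar of 222 for the 37 °C mutant stands against 10 for 37 °C wild type, while gene probe sets had 148 and 144.

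The lowest signals also differed between arrays. Among the 1462 sets without a gene at or below the floor on all 4 arrays, the median signal was 4.70 in the 37 °C mutant, 2.60 in the 25 °C mutant, 3.10 in 37 °C wild type and 3.10 in 25 °C wild type. Among the 1328 such sets with 1 gene it was 7.40 in the 37 °C mutant, 5.61 in the 25 °C mutant, 7.85 in 37 °C wild type and 6.01 in 25 °C wild type. The 4 control probe sets for mouse genes had a median of 0.75 in the 37 °C mutant, 1.95 in the 25 °C mutant, 0.65 in 37 °C wild type and 2.45 in 25 °C wild type, so these controls stayed far under the floor and were lower on both 37 °C arrays. What part the dim signals have in the counts was not tested.

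At 37 °C the probe sets without a gene that differed were mostly higher in the mutant. A probe set was measured when the higher of its 2 signals lay above the floor, and called when the signals differed at least 2-fold, a log2 difference of 1. Of 935 measured, 190 (20.3%) were higher and 13 (1.39%) lower. Over all 6315 non-control probe sets measured in this comparison, 7.09% were higher and 3.71% lower. Probe sets with 1 gene had 241 of 5115 higher (4.71%) and 206 lower (4.03%). The median log2 difference was 0.27 without a gene, with quartiles of -0.10 and 0.79, and -0.03 over all non-control probe sets. These shares and medians depend on the filter, as a set can enter through its mutant signal alone, and such a set has a positive difference. Without the filter, 190 of 2443 sets without a gene (7.78%) and 241 of 6504 with 1 gene (3.71%) were higher. Both medians were then 0. For 97 of the 190 the wild type signal was at or below the floor, so their folds are lower bounds. The 190 had a median signal of 104 in the 37 °C mutant and of 21.5 in 37 °C wild type. At least 4-fold differences numbered 75, and at least 8-fold differences 23.

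**Figure D2:**
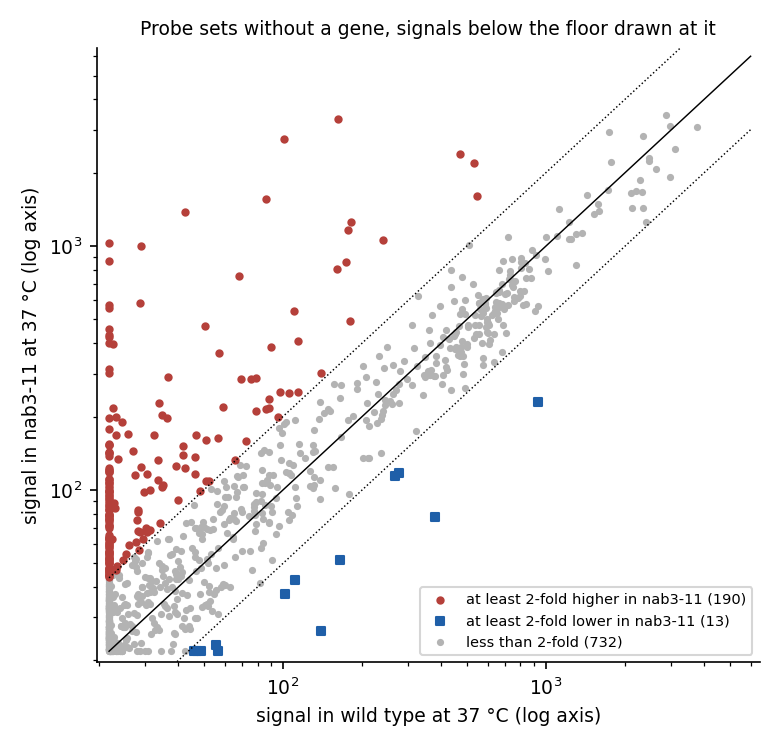
Signal in the 37 °C mutant (y axis) against 37 °C wild type (x axis) for the 935 measured probe sets without a gene, on log axes with values below the floor drawn at it. The solid line is equality and the dotted lines 2-fold. The 190 higher sets fill the upper left, 97 of them at the left edge where wild type was at or below the floor, and 13 lie below the lower dotted line.

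Among the most different probe sets those without a gene were frequent. Of the 20 with the highest difference among 5460 sets with both 37 °C signals above the floor, 12 had no gene, 4 were snoRNA or snRNA genes (snRNAs are the RNAs of the spliceosome) and 4 protein-coding genes. Of the 100 highest, 51 had no gene and 33 were protein-coding. Sets without a gene made up 616 (11.3%) of the 5460. Of the 100 lowest, 9 had no gene.

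The imbalance in calls was present in each band of signal. Brightness matters because a set close to the floor can hardly pass 2-fold. The bands use the higher of the 2 signals, so a higher set enters its band through its mutant signal. They do not match sets on their wild type signal. With the higher of the 2 signals between 50 and 100, 76 of 184 sets without a gene (41.3%) were higher in the 37 °C mutant, against 68 of 1237 sets with 1 gene (5.50%). Between 100 and 200 it was 50 of 116 (43.1%) against 66 of 982 (6.72%). Between 200 and 500 it was 28 of 118 (23.7%) against 58 of 890 (6.52%), and above 500 it was 20 of 157 (12.7%) against 38 of 765 (4.97%). From the floor to 50 it was 16 of 360 (4.44%) against 11 of 1241 (0.886%). Lower calls without a gene stayed between 0.637% and 3.45% in these bands. The median log2 difference without a gene was 0.26 from the floor to 50, 0.63 between 50 and 100 and 0.79 between 100 and 200. It was -0.02 between 200 and 500 and -0.10 above 500, where sets with 1 gene had 0.04 and -0.06. The typical bright set without a gene was thus not higher in the mutant. No test of the gap can be made with these arrays.

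**Figure D3:**
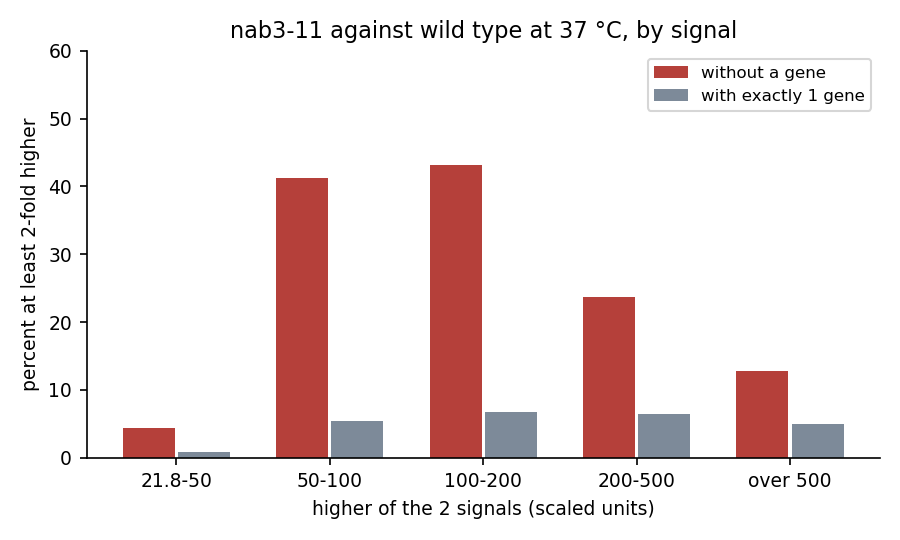
Percent of probe sets at least 2-fold higher in the 37 °C mutant than in 37 °C wild type (y axis) by the higher of the 2 signals (x axis, scaled units), for sets without a gene and with exactly 1 gene. The share without a gene is 41.3% and 43.1% in the bands from 50 to 200, against 5.50% and 6.72% with a gene.

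The kinds of probe set differed. Of the measured plain _at sets, 154 of 639 (24.1%) were higher in the 37 °C mutant and 7 lower, with a median log2 difference of 0.41. The _f_at sets had 5 of 191 higher (2.62%) and 1 lower, with a median of -0.15. Among the small kinds, 15 of 44 _s_at, 8 of 33 _i_at, 6 of 17 _g_at and 2 of 11 _r_at sets were higher. The bright family sets thus contributed few of the calls.

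Temperature was compared within each strain. In the mutant, 250 of 946 measured sets without a gene (26.4%) were higher at 37 °C than at 25 °C and 28 (2.96%) lower, where all non-control sets had 17.2% higher and 4.66% lower. In wild type, 68 of 721 (9.43%) were higher at 37 °C than at 25 °C and 14 (1.94%) lower, where all non-control sets had 10.8% and 1.64%. These temperature splits depend on how the arrays are scaled. With a common median the mutant had 170 higher and 168 lower, and wild type 28 higher and 69 lower. With quantile normalization the mutant had 183 higher and 67 lower, and wild type 34 higher and 53 lower. The median of all non-control sets was 0.19 in the mutant, with -0.26 under a common median and -0.08 under quantile normalization. In wild type it was 0.24, with -0.22 and -0.03. Read against that shift, the median of 0.32 without a gene in the mutant lay above it under all 3 scalings, with 0.02 under a common median and 0.09 under quantile normalization. The wild type median of 0.06 without a gene lay below the median of all sets under all 3, with -0.35 and -0.08. These shares and medians are of measured sets. Without the filter the medians in the original scaling were 0. In the mutant 10.2% of sets without a gene and 11.7% with 1 gene were then higher at 37 °C. In wild type it was 2.78% and 8.24%.

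**Figure D4:**
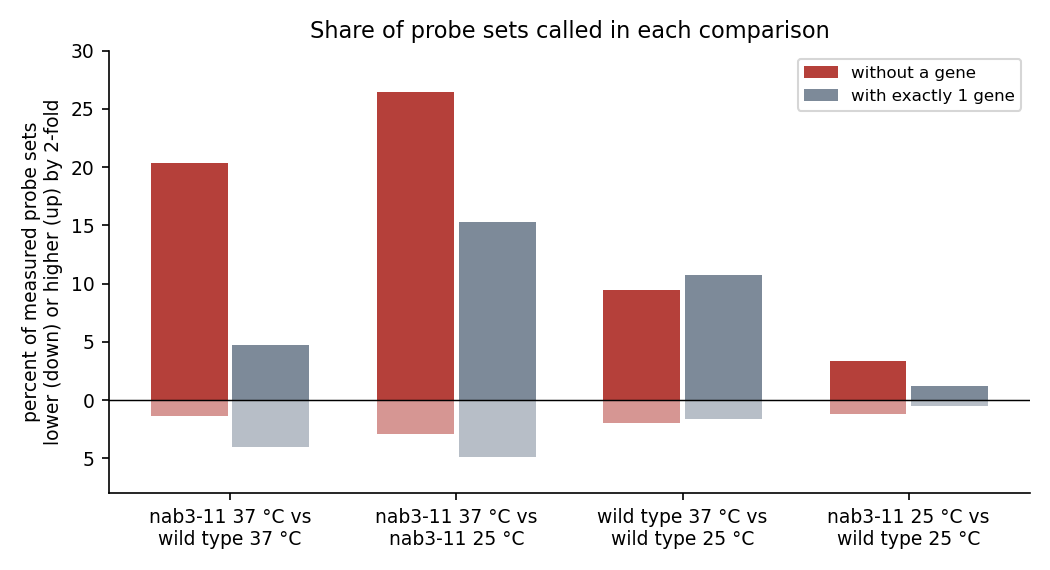
Percent of measured probe sets at least 2-fold higher (above 0) or lower (below 0, paler) in 4 comparisons, for sets without a gene and with exactly 1 gene. For the 37 °C mutant against 37 °C wild type the higher shares are 20.3% without a gene and 4.71% with 1 gene. For 37 °C wild type against 25 °C wild type they are 9.43% and 10.7%.

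Few sets were called between the strains at the permissive temperature. At 25 °C, 23 of 679 measured sets without a gene (3.39%) were higher in the mutant and 8 (1.18%) lower, with 1.5% and 0.614% over all non-control sets. In the strain-by-temperature difference, the change in the mutant minus that in wild type, 210 of 981 (21.4%) were higher and 48 (4.89%) lower, with 7.05% and 5.65% over all non-control sets.

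A stricter set needed 2-fold the same way of the 37 °C mutant over 37 °C wild type, over the 25 °C mutant and in the strain-by-temperature difference. It held 170 of 981 sets without a gene (17.3%) as higher and 4 (0.408%) as lower, where all 6423 non-control sets had 5.0% and 1.14%. The comparisons share the mutant 37 °C array, so their overlap is no separate support. Sets with 1 gene had 140 higher and 65 lower of 5176. With a floor at the 55th percentile 103 sets without a gene and 130 with 1 gene were higher, so the order of the 2 counts turns with the floor. Of the 170, 142 were plain _at sets and 70 were at or below the floor on all 3 other arrays. Without the wild type 37 °C array, whose description conflicts with its title, 224 sets without a gene were higher than on both 25 °C arrays. Among these were 158 of the 170, all of which had already passed 2-fold over the 25 °C mutant. The overlap is therefore no separate support. The 25 °C wild type array, kept here, has the same conflict, so the omission does not check the labels. Against both 25 °C arrays 646 of 5032 sets with 1 gene (12.8%) were higher, and 224 of 971 (23.1%) without a gene.

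The 8 highest of this set, ranked by the smaller of the 2 pairwise differences, were dim on 3 arrays and bright in the 37 °C mutant. The signal of 7502_at was 866 in the 37 °C mutant, against 14.3 in the 25 °C mutant, 15.6 in 37 °C wild type and 26.0 in 25 °C wild type. It was at least 39.7-fold higher than in 37 °C wild type. The signal of 10871_s_at was 1001 in the 37 °C mutant, 35.5 in the 25 °C mutant, 28.9 in 37 °C wild type and 46.1 in 25 °C wild type, so it was above the floor on all 4 arrays and 34.6-fold higher than in 37 °C wild type. For 9835_at the signals were 1378 in the 37 °C mutant, 55.5 in the 25 °C mutant, 42.2 in 37 °C wild type and 68.1 in 25 °C wild type. It was 32.6-fold higher than in 37 °C wild type and 24.8-fold higher than in the 25 °C mutant.

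The other 5 of these 8 had peaks between 396 and 576. The set 2287_at had 576 in the 37 °C mutant, 10.2 in the 25 °C mutant, 11.3 in 37 °C wild type and 4.31 in 25 °C wild type. The set 8741_at had 396 in the 37 °C mutant, 12.7 in the 25 °C mutant, 22.5 in 37 °C wild type and 9.21 in 25 °C wild type. Against 37 °C wild type, 2287_at was at least 26.4-fold higher, and 8741_at was 17.6-fold higher with both signals above the floor. Bounds against 37 °C wild type were 19.4-fold for 10151_at, 18.4-fold for 7764_at and 19.8-fold for 9077_at, each at least that much higher. Ranked by the 37 °C strain difference alone with both signals above the floor, 10871_s_at and 9835_at were followed by 8755_at (27.3-fold), 9836_at (20.7-fold) and 9039_at (20.5-fold). The brightest of these was 9836_at, with 3332 in the 37 °C mutant, 270 in the 25 °C mutant, 161 in 37 °C wild type and 346 in 25 °C wild type. Wild type signals of 8755_at were 100.5 at 37 °C and 151 at 25 °C. Of these 5 sets, 10871_s_at, 9835_at, 8755_at and 9836_at had a lower wild type signal at 37 °C than at 25 °C, and 9039_at had a higher one.

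**Figure D5:**
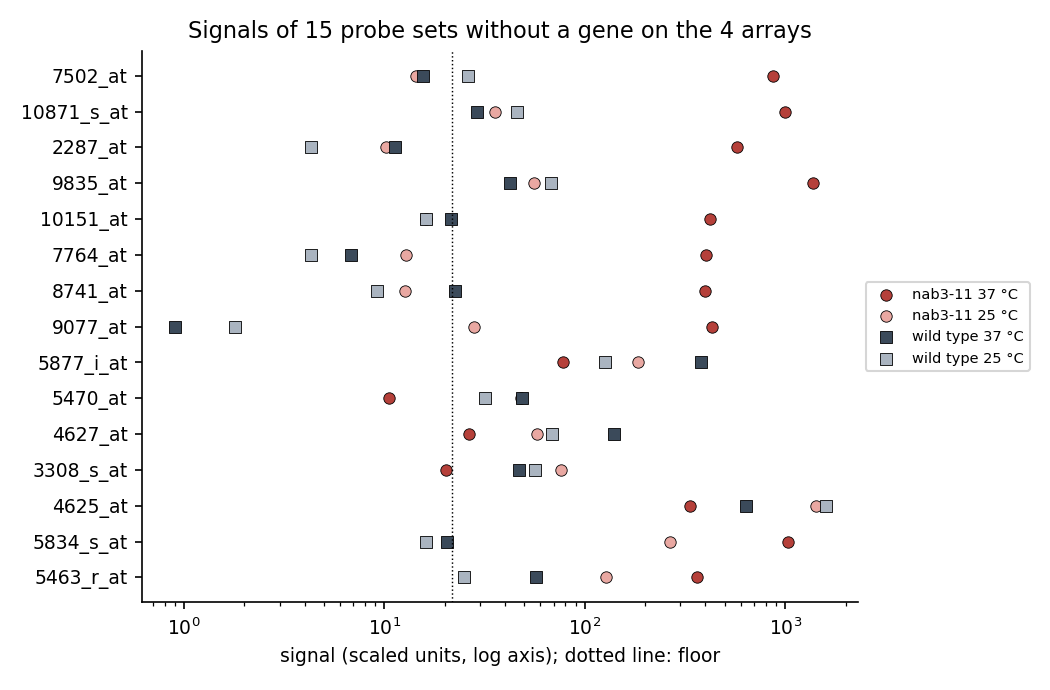
Signals of 15 probe sets without a gene on the 4 arrays (x axis, scaled units, log axis; 1 row per probe set, dotted line at the floor of 21.8). In the upper 8 rows the nab3-11 37 °C point stands alone between 396 and 1378, in the next 4 it is the lowest point, and in 5834_s_at and 5463_r_at both nab3-11 points lie right of both wild type points.

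ID numbers followed gene order for protein-coding genes. Of 5473 pairs of adjacent-numbered protein-coding probe sets, 5434 (99.3%) had genes on the same chromosome and 5074 (92.7%) genes at most 2 places apart in the R64 annotation. This was looked at after the values were seen, and a number does not place a probe set without a gene in the genome. By their numbers, 442 sets without a gene were interleaved, alone or in a pair, between protein-coding probe sets whose genes lie close together, 1421 stood in unbroken stretches of 5 or more, up to 48, and 580 fell elsewhere.

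Higher calls outnumbered lower ones in each of these 3 kinds of place. Of 168 measured interleaved sets, 51 (30.4%) were higher and 1 lower than in 37 °C wild type, with a median log2 difference of 0.42. Of 525 in stretches, 108 (20.6%) were higher and 11 lower, and the median was 0.30. Of 242 elsewhere, 31 (12.8%) were higher and 1 lower. Of the 100 gene sets numbered on either side of the 51 interleaved sets, 82 were measured, 2 were higher and 6 lower, with a median log2 difference of -0.08. Over all protein-coding probe sets 3.53% were higher and 4.14% lower.

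Named examples can be set beside their numbered neighbours. The set 10151_at had 424 in the 37 °C mutant, 16.1 in the 25 °C mutant, 21.6 in 37 °C wild type and 16.2 in 25 °C wild type. Its neighbours by number were those of APS1, for a small subunit of a clathrin adaptor, with 64.7 in the 37 °C mutant and 72.1 in 37 °C wild type, and DPH5, for a methyltransferase of diphthamide synthesis, with 204 and 317. The set 7764_at had 401 in the 37 °C mutant and 6.80 in 37 °C wild type. Its neighbours were MRX21, with 51.7 and 67.2, and CMR3, with 18.5 and 18.5, below the floor. Neither pair of neighbours passed 2-fold.

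For 9039_at a neighbour differed in the opposite direction. Its signals were 585 in the 37 °C mutant, 46.0 in the 25 °C mutant, 28.6 in 37 °C wild type and 23.4 in 25 °C wild type. The set numbered just before it belongs to NOP13, a nucleolar protein gene, with 32.1 in the 37 °C mutant, 160 in the 25 °C mutant, 168 in 37 °C wild type and 178 in 25 °C wild type. The set numbered just after it, of MDG1, had 45.7 in the 37 °C mutant and 36.3 in 37 °C wild type. The set 9077_at had 432 in the 37 °C mutant, 28.1 in the 25 °C mutant, 0.90 in 37 °C wild type and 1.80 in 25 °C wild type. Of the gene sets around it, JJJ1, a co-chaperone of ribosome assembly, had 5.40 and CNM67, of the spindle pole body, had 12.7 in the 37 °C mutant, both below the floor.

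Some higher sets had consecutive numbers. Of the 190, 49 (25.8%) stood next to another of the 190, in 20 groups, of which 5 had at least 3 sets. No such share over all measured sets was computed. In the stretches of consecutive numbers 108 of 1421 sets were higher, and 525 of the 1421 were measured. Whether higher sets cluster by number was not tested. Whether consecutive sets bind the same RNA is not known from the files. The group 9835_at, 9836_at and 9837_s_at included the strong signals given above, and 9837_s_at had 169 in the 37 °C mutant and 32.2 in 37 °C wild type. Next to 10871_s_at, the set 10872_at had 1566 in the 37 °C mutant, 119 in the 25 °C mutant, 86.5 in 37 °C wild type and 202 in 25 °C wild type. Next to 8741_at, 8742_at had 300.4 in the 37 °C mutant and 11.7 in 37 °C wild type. Next to 2287_at, the sets 2284_at, 2285_at and 2286_at had 70.1, 121 and 58.4 in the 37 °C mutant, and 3.0, 8.10 and 0.60 in 37 °C wild type. All 3 lay below the floor on both 25 °C arrays. The group 6943_g_at, 6944_at and 6945_g_at had 94.8, 97.3 and 1163 in the 37 °C mutant, against 6.40, 1.80 and 176 in 37 °C wild type.

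The group from 5831_at to 5835_i_at was also detected in the 25 °C mutant. The set 5834_s_at, with the highest bound of all members at 37 °C, had 1032 in the 37 °C mutant, 266 in the 25 °C mutant, 20.5 in 37 °C wild type and 16.2 in 25 °C wild type. Both wild type signals lay below the floor, so it was at least 47.3-fold higher at 37 °C and at least 12.2-fold higher at 25 °C. The set 5832_i_at had 458 in the 37 °C mutant, 56.2 in the 25 °C mutant, 5.90 in 37 °C wild type and 2.70 in 25 °C wild type. For 5835_i_at it was 138 in the 37 °C mutant, 34.8 in the 25 °C mutant, 3.6 in 37 °C wild type and 2.70 in 25 °C wild type. These 3 sets were above the floor in the mutant and below it in wild type at both temperatures. The remaining 2 of the group, 5831_at with 47.2 and 5833_r_at with 110.4 in the 37 °C mutant, lay below the floor on the other 3 arrays.

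Other sets differed by strain at 25 °C already. The 3 highest with both 25 °C signals above the floor were 5463_r_at, 8770_i_at and 2713_s_at. The set 5463_r_at had 364 in the 37 °C mutant, 127 in the 25 °C mutant, 57.2 in 37 °C wild type and 24.9 in 25 °C wild type, and was 5.11-fold higher in the 25 °C mutant. The sets 8770_i_at and 2713_s_at were 3.07-fold and 2.97-fold higher in the 25 °C mutant. The set numbered just after 2713_s_at, 2714_s_at, had 2182 in the 37 °C mutant, 702 in the 25 °C mutant, 532 in 37 °C wild type and 416 in 25 °C wild type. In the 25 °C mutant the 3 lowest under the same limit were 9236_at, 7023_at and 5460_at, with log2 differences of -1.16, -1.16 and -1.13. The first 2 of these were nevertheless higher in the 37 °C mutant, 2.68-fold for 9236_at and 2.98-fold for 7023_at.

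Few sets without a gene were lower in the 37 °C mutant. The 4 of the stricter set were 5877_i_at, 4627_at, 5470_at and 3308_s_at. The set 5877_i_at had 77.7 in the 37 °C mutant, 184 in the 25 °C mutant, 378 in 37 °C wild type and 127 in 25 °C wild type. The set 4627_at had 26.4 in the 37 °C mutant, 57.9 in the 25 °C mutant, 139 in 37 °C wild type and 68.8 in 25 °C wild type. In both, the wild type signal was higher at 37 °C than at 25 °C while the mutant signal was lower. The set 5470_at had 10.6 in the 37 °C mutant and 48.6 in 37 °C wild type, and 3308_s_at had 20.4 and 46.9. By the 37 °C strain difference alone, 4627_at and 5877_i_at were followed by 5878_r_at, 5274_at and 4602_at, with log2 differences of -2.04, -1.68 and -1.44. In these 3 the wild type signal at 37 °C was 936, 164 and 101, against 444, 51.9 and 35.5 in 25 °C wild type.

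Some sets differed with temperature the same way in both strains. The set 9241_at had 322 in the 37 °C mutant and 20.1 in the 25 °C mutant, and 202 in 37 °C wild type and 22.6 in 25 °C wild type. The set 2858_at had 540 and 32.1 in nab3-11, and 110 and 23.7 in wild type, at 37 °C and 25 °C. The set 8112_at had 493 and 40.5 in nab3-11, and 180 and 47.3 in wild type, at 37 °C and 25 °C. In wild type these had the 3 highest differences where both signals exceeded the floor, and in the mutant 2858_at came next after 10871_s_at and 9835_at. The sets 2858_at and 8112_at also differed by strain. They were 4.90-fold and 2.74-fold higher in the 37 °C mutant than in 37 °C wild type, and both belong to the stricter set. For 9241_at that difference was 1.60-fold, below the threshold. Lower at 37 °C in both strains were 4625_at and 10902_at. The set 4625_at was at 336 and 1422 in nab3-11, and 634 and 1592 in wild type, at 37 °C and 25 °C. Where both signals exceeded the floor, the other 2 lowest in the mutant, 7027_at and 10902_at, were 3.39-fold and 3.24-fold lower at 37 °C than at 25 °C. In wild type, under the same limit, the other 2 lowest were 8040_at and 6979_at, which were 2.83-fold and 2.82-fold lower at 37 °C.

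The brightest sets without a gene differed little. The 5 with the highest mean signal were 9183_s_at, 3915_s_at, 3914_s_at, 3798_s_at and 3772_f_at, none of them plain _at sets. The set 9183_s_at had 3089 in the 37 °C mutant, 3978 in the 25 °C mutant, 3744 in 37 °C wild type and 5816 in 25 °C wild type. Their log2 differences between the strains at 37 °C lay between -0.62 (3772_f_at) and 0.27 (3915_s_at). Beside the strongly different 8755_at, the next number, 8756_i_at, had 1613 in the 37 °C mutant and 1427 in 37 °C wild type.

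Annotated short RNAs and the pathway genes give the comparison with named RNAs. Probe sets for a snoRNA or snRNA gene had 32 of 49 higher (65.3%) and 0 lower in the 37 °C mutant, and those for a tRNA gene 30 of 71 higher (42.3%) and 0 lower. Protein-coding probe sets had 176 of 4981 higher (3.53%) and 206 lower (4.14%). In this comparison the share of 20.3% without a gene lay between those of short RNAs and of protein-coding genes. Against both controls the tRNA share was 8 of 74 (10.8%), below the 17.3% without a gene. The snoRNA or snRNA share there was 24 of 49 (49.0%). For 37 °C against 25 °C in the mutant, 25.4% of tRNA sets and 26.4% of sets without a gene were higher. Of 9 genes of the termination and decay pathway, NRD1 was higher and RRP6 lower in the mutant than in 37 °C wild type, and 7 passed in neither direction. Over all non-control sets 7.09% were higher and 3.71% lower. RRP6 had 28.0 in the 37 °C mutant and 57.5 in 37 °C wild type, a 2.05-fold difference close to the threshold. PAP2, among the 7, lay below the floor on both 37 °C arrays and so was not measured. SEN1, also among the 7, had several probe sets. Of these, 2865_g_at to 2869_s_at lay below the floor on all 4 arrays, and 2870_s_at, 2871_s_at and 9877_at were measured. NRD1, for the partner of Nab3, had 717 in the 37 °C mutant, 292 in the 25 °C mutant, 88.9 in 37 °C wild type and 126 in 25 °C wild type. The NAB3 probe set had 81.1 in the 37 °C mutant and 66.8 in 37 °C wild type. A point or partial allele can keep its transcript, so this level is no check of the labels.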

How the data were processed

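Probe-set intensity, linear, was deposited by the authors for 1 array per sample. The submitters' processing notes name MAS5 and GCOS 1.1.1. Per the labels' protocols, RNA was prepared with hot acid phenol and 1 amplification round from an oligo(dT) primer, which favours polyadenylated RNA. Sources used here give no build for the array design, and detection calls were left aside.

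Each array was scaled to a 2% trimmed mean of 150 over non-control probe sets, so a change in total RNA would not show. The deposited trimmed means were already between 149.8 and 150.02. Signals under the floor (40th percentile) were set to it before log2, which understates differences of dim sets. Calls at 2-fold were made over the whole table, and only rows needed here are printed. The 6504 sets with 1 gene were all matched to the R64 table by gene ID. No 2 non-control sets shared an ID number, so a planned comparison of such sets could not be made.

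Members, lists and calls were chosen with earlier results of these data known. Named sets are the highest and lowest of each comparison (8 and up to 5 against both controls; 5 and 5 plus 3 bounds between strains at 37 °C; 3 and 3 elsewhere), the 5 brightest and those nearest the floor. Consecutive and flanking sets were chosen after the values were seen. Alternatives were other scalings, floors and thresholds, plain sets only, no filter, a stricter annotation rule, and omission of the 37 °C wild type array. The code for the calls was run on simulated data, with changes larger than 2-fold in sets well above the floor only. That run does not check 2-fold calls or sets near the floor. Software was Python 3.11.15 with pandas 2.3.3, numpy 2.4.6, matplotlib 3.10.9 and scipy 1.17.1.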

Additional observations from a re-analysis of the deposited data

Results flagged for a closer look

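For 5 probe sets without a gene, 37 °C against 25 °C was called in opposite directions in the 2 strains. That difference was not tested, as each strain has 1 array per temperature. The log2 strain-by-temperature difference was 4.95 for 10872_at, 4.73 for 9836_at and 2.48 for 10037_at, which were higher at 37 °C in the mutant and lower in wild type. It was -2.15 for 4627_at and -2.82 for 5877_i_at, which were lower at 37 °C in the mutant and higher in wild type. The dimmest of the 5 by its highest signal, 10037_at, had 59.3 in the 37 °C mutant, 17.9 in the 25 °C mutant, 25.9 in 37 °C wild type and 53.2 in 25 °C wild type. With the floor at the 55th percentile, 44.0, none of these signals reached 2 times the floor, so 10037_at could not be called there. For 4627_at the wild type log2 difference of 1.02 became 0.51 under median scaling and 0.60 under quantile scaling, below the threshold.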

How the results depend on the processing

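Single arrays without replicates, an unknown target for each probe set and dim signals limit these results; the floor decides how many dim sets enter. Of 122 counts of called sets under the alternatives, 67 stayed within 1.5 times the original and 55 moved further; no called difference of a named set changed sign. The values as deposited, which were already scaled almost alike, gave counts within that range in every comparison. No filter and a stricter annotation rule gave the original counts, which was fixed in advance. A set dropped by the filter has both signals at the floor and cannot be called, and the stricter rule keeps the same sets. Their counts are among the 67 and are no check of the results. In the order mutant against wild type at 37 °C, 37 °C against 25 °C in the mutant, 37 °C against 25 °C in wild type, mutant against wild type at 25 °C, strain-by-temperature difference and 37 °C mutant against both controls, a floor at the 25th percentile gave 346, 461, 128, 50, 419 and 296 higher and 23, 44, 51, 48, 77 and 11 lower sets. In the same order, a floor at the 55th percentile gave 113, 141, 30, 12, 115 and 103 higher and 8, 17, 7, 1, 30 and 1 lower sets. In the same order, a 3-fold threshold gave 109, 142, 22, 4, 111 and 91 higher and 4, 6, 0, 0, 11 and 0 lower sets. Under these 3 alternatives sets with 1 gene had 306, 179 and 75 higher in the 37 °C mutant, or 5.24%, 4.38% and 1.47%, against 24.6%, 18.4% and 11.7% without a gene.

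With a common median the mutant had 168 lower sets at 37 °C than at 25 °C, wild type had 28 higher and 69 lower, and 7 were lower against both controls. With quantile normalization those counts were 67, 34, 53 and 10. The higher sets between strains at 37 °C were 165 and 169 under these scalings, and 165 and 166 of them belonged to the original 190. With the floor added there were 177, of which 149 did, and 128 of 144 against both controls were among the original 170. With the floor added to each signal, 7 sets were lower in 37 °C than in 25 °C wild type, 14 were higher and 3 lower in the 25 °C mutant, 30 were lower in the strain-by-temperature difference and 2 against both controls. With plain _at sets only, 7 were lower between strains at 37 °C, 16 lower in the mutant at 37 °C against 25 °C, 10 higher in the 25 °C mutant, 30 lower in the strain-by-temperature difference and 2 lower against both controls. Without the wild type 37 °C array, 10 were lower than on both 25 °C arrays.

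The share of sets above the floor in the 37 °C mutant, 25 °C mutant, 37 °C wild type and 25 °C wild type was 55.2%, 41.5%, 44.1% and 43.9% with a floor at the 25th percentile. In the same order it was 23.9%, 16.2%, 17.8% and 15.8% at the 55th percentile, and 32.7%, 26.7%, 23.9% and 28.0% with quantile normalization. No paired analysis was possible because each group has 1 array.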
